A study of Mus musculus with 12 samples.

Results

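Mouse cells carry a small circular genome in their mitochondria that encodes 13 mRNAs, and 10 of them were followed here by name through every library: mt-Co1, mt-Co2 and mt-Co3, mt-Cytb, mt-Nd1, mt-Nd2, mt-Nd4, mt-Nd5, mt-Nd6 and mt-Atp6. All 10 were found among the 55416 gene identifiers of the 12 count tables. The cells came from E14Tg2a.4, a line of mouse embryonic stem cells, modified so that Rpl31, a protein of the large subunit of the cytosolic ribosome, ended in a FLAG-TEV-AviTag sequence. ALIBi, a biotinylation system supplied on plasmids as an N-terminal and a C-terminal fragment, was targeted either to the endoplasmic reticulum (ER) or to the cytosol, and biotinylated ribosomes were affinity purified and released with TEV protease. The 4 groups of 3 biological replicates were ER ribosome-bound RNA, ER whole-cell RNA, cytosol ribosome-bound RNA and cytosol whole-cell RNA, where whole-cell RNA came from lysate kept back before purification. All groups shared the tagged line, the plasmid transfection, cycloheximide in the lysis buffer and selection of poly(A) RNA. The labels name no separate cultures or days for the replicates, so p-values reflect how these particular libraries vary.

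Mitochondrial mRNAs are made and translated inside the mitochondrial matrix by mitochondrial ribosomes, which have their own rRNAs, encoded by the same genome, and ribosomal proteins imported from the cytosol. Cytosolic ribosomes, the kind that carries Rpl31, translate the nuclear mRNAs, among them those of most subunits of the respiratory chain. The mitochondrial mRNAs encode hydrophobic core subunits of complexes I, III, IV and V in the inner membrane, and their level in purified cytosolic ribosomes is therefore read as a background of RNA from another compartment. The question here was how much of each of them remained after purification, and whether the remainder was alike across genes and between both targetings.

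Some of these genes have near-identical copies in the nuclear genome, which bears on how many reads could be assigned to them. The sequences below come from the GENCODE M21 transcripts (GRCm38) and are shown because they mark where a read can be told from its nuclear copy and where it cannot. In mt-Co1, bases 1054 to 1143 of the transcript, counted from 1 at its 5′ end, were compared with the pseudogene Gm29216 on chromosome 1, and capitals mark the bases that differ.
mt-Co1: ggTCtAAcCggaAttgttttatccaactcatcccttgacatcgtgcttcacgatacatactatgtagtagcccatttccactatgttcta
Gm29216: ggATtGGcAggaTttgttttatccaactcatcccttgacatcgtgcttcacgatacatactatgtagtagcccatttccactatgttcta
Of 492 aligned bases, 6 differed, given here with the base of mt-Co1 first and that of Gm29216 last (T1056A, C1057T, A1059G, A1060G, C1062A and A1066T), and the 479 bases after them were identical. The first 60 bases of mt-Atp6 and of Gm10925, also on chromosome 1, hold no difference and so no capitals.
mt-Atp6: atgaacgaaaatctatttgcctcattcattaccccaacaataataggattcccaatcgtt
Gm10925: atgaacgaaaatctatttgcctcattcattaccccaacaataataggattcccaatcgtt
The identity ran over all 678 aligned bases of mt-Atp6, over 681 bases of mt-Co2 against Gm28661, over 783 bases of mt-Co3 against Gm28437 and over 876 bases of mt-Nd4 against Gm28439.

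Expressed as windows of 150 bases, the read length, 99.8% of the windows of mt-Co3, 99.4% of those of mt-Co2 and 99.4% of those of mt-Atp6 were also present in an annotated nuclear transcript. The share was 59.2% for mt-Nd4 and 23.6% for mt-Co1. No such window was found for mt-Cytb, mt-Nd1, mt-Nd2, mt-Nd5 or mt-Nd6. Counts of mt-Co2, mt-Co3 and mt-Atp6 are therefore uncertain, and how the counting treated reads that match several places is not given in the sources used here. Reads with several alignments were 4.92% to 5.11% of all reads in ER ribosome-bound libraries and 7.25% to 7.58% in ER and cytosol whole-cell libraries, with 5.58% to 6.17% in cytosol ribosome-bound ones. Below, levels are given in CPM, the counts of a gene relative to its scaled library size.

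**Figure D1:**
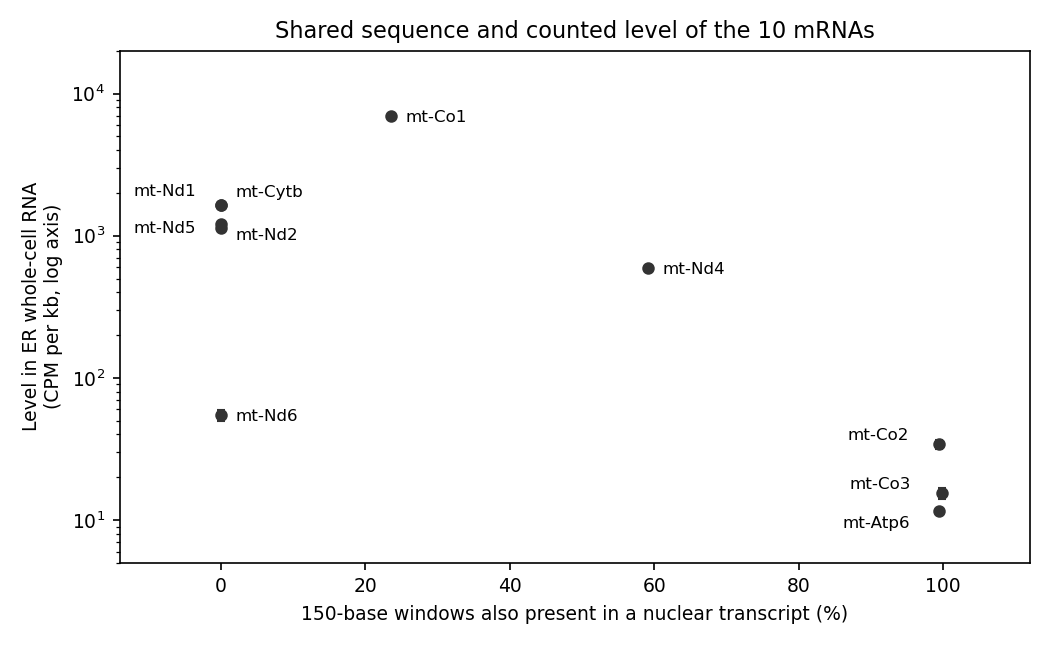
Level of each of the 10 mRNAs in ER whole-cell RNA (CPM per kb of transcript, log axis, mean and SD of 3 libraries) against the percentage of its 150-base windows that also occur in an annotated nuclear transcript. The 3 mRNAs at over 99% shared windows lie at 11.6 to 34.0 CPM per kb, and mt-Nd6, with no shared window, lies at 54.7.

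Library depth was 21.1 to 26.9 M gene counts. The stem cell identity of the lysates was visible in their markers: 10 stem cell markers, among them Tdgf1 and Esrrb, were read in every group, at a summed 8773.1 to 9135.1 CPM in ER whole-cell and 8759.7 to 8944.6 CPM in cytosol whole-cell libraries. Fibroblast markers summed to 68.5 to 74.0 CPM in ER ribosome-bound libraries, against 18.7 to 21.8 CPM in the other groups. Most of the ER ribosome-bound sum was Thy1 (mean 58.3 CPM), with Col1a1 at 10.3, while Col3a1, Lum and Postn were at 0.109 CPM or less. Over all groups endoderm markers summed to 7.79 to 15.4 CPM, neural markers to 8.4 to 15.0 CPM and mesoderm markers to at most 1.41 CPM. Across all genes the Pearson correlation of replicates was 0.9974 to 0.998, and a chi-square of 2.11 to 9.12 per gene put each pair beyond counting noise.

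In whole-cell RNA the 10 mRNAs were abundant and unequal. Together they took 1.80% ± 0.0255 of the gene counts in ER whole-cell RNA and 1.81% ± 0.0377 in cytosol whole-cell RNA (SD, n = 3 each). Per kb of transcript, mt-Co1, the catalytic core subunit of cytochrome c oxidase, led with 6967.8 ± 260.0 CPM per kb in ER whole-cell RNA. It was followed by mt-Nd1 and mt-Cytb at 1657.2 ± 39.2 and 1637.9 ± 35.4 CPM per kb, which did not differ beyond their spread. Next came mt-Nd5 and mt-Nd2 at 1201.0 ± 41.5 and 1134.6 ± 31.9 CPM per kb, whose SDs overlap, then mt-Nd4 at 591 ± 3.44. Levels were far lower for mt-Nd6 (54.7 ± 5.07 CPM per kb), mt-Co2 (34.0 ± 2.54), mt-Co3 (15.4 ± 1.29) and mt-Atp6 (11.6 ± 0.243). In cytosol whole-cell RNA mt-Cytb (1677.7 CPM per kb) came just before mt-Nd1 (1664.1), and the order was otherwise the same, from mt-Co1 at 6922.0 to mt-Atp6 at 11.8 CPM per kb. The mRNAs with almost all windows shared with a nuclear copy stood at the bottom of this order, and the part of the shared sequence in their low counts was not tested. mt-Nd6, a complex I subunit, is the one member encoded on the opposite strand, and in human cells its mRNA lacks a poly(A) tail.

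After purification of labelled ribosomes, each of the 10 mRNAs was depleted to a small percentage of its whole-cell level, with both targetings. The members together held 0.0353% ± 0.00336 of the gene counts in ER ribosome-bound RNA against 1.80% in ER whole-cell RNA, and 0.0387% ± 0.00429 in cytosol ribosome-bound RNA against 1.81% in cytosol whole-cell RNA (SD, n = 3 each). The residual level, which is the level in a ribosome-bound library as a percentage of the mean level in whole-cell RNA of the same targeting, was 2.03% ± 0.189 with ER targeting and 1.87% ± 0.197 with cytosol targeting for the summed members. Its SD covers the ribosome-bound libraries. In the quasi-likelihood test of edgeR, adjusted by Benjamini-Hochberg over 16221 genes, 10 of 10 members were lower in ER ribosome-bound than in ER whole-cell RNA, beside 30.6% of all tested genes called lower and 32.5% called higher. The log2 ratio (ribosome-bound over whole-cell) ran from -6.48 to -5.40 with a median of -5.94, while the median of all tested genes was 0.01. With cytosol targeting 10 of 10 were lower as well, beside 33.1% of all genes called lower and 20.8% called higher, at log2 -6.36 to -5.30 with a median of -5.98 against -0.05 over all genes. Both counts include mt-Co2, mt-Co3 and mt-Atp6, which were tested only because of their whole-cell levels, as described below. Values are relative to the other RNA of a library, so the amounts of RNA lost or carried through in absolute terms are not known.

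Not every member carries equal weight in these counts. All 10 passed the filter on low counts, 6 of them by exceeding the minimum of 10 counts at median depth in all 12 libraries (mt-Co1, mt-Cytb, mt-Nd1, mt-Nd2, mt-Nd4 and mt-Nd5). mt-Co3 and mt-Atp6 exceeded it in whole-cell libraries but in no ribosome-bound library, so they entered the test through the group in which they were high. mt-Co2 exceeded it in 1 ER and 1 cytosol ribosome-bound library, and mt-Nd6 in 1 ER and 3 cytosol ones. For mt-Co2 these are fewer libraries than a group holds, so it too entered through whole-cell RNA. The calls of mt-Co2, mt-Co3 and mt-Atp6 as lower are therefore no independent evidence of depletion.

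**Figure D2:**
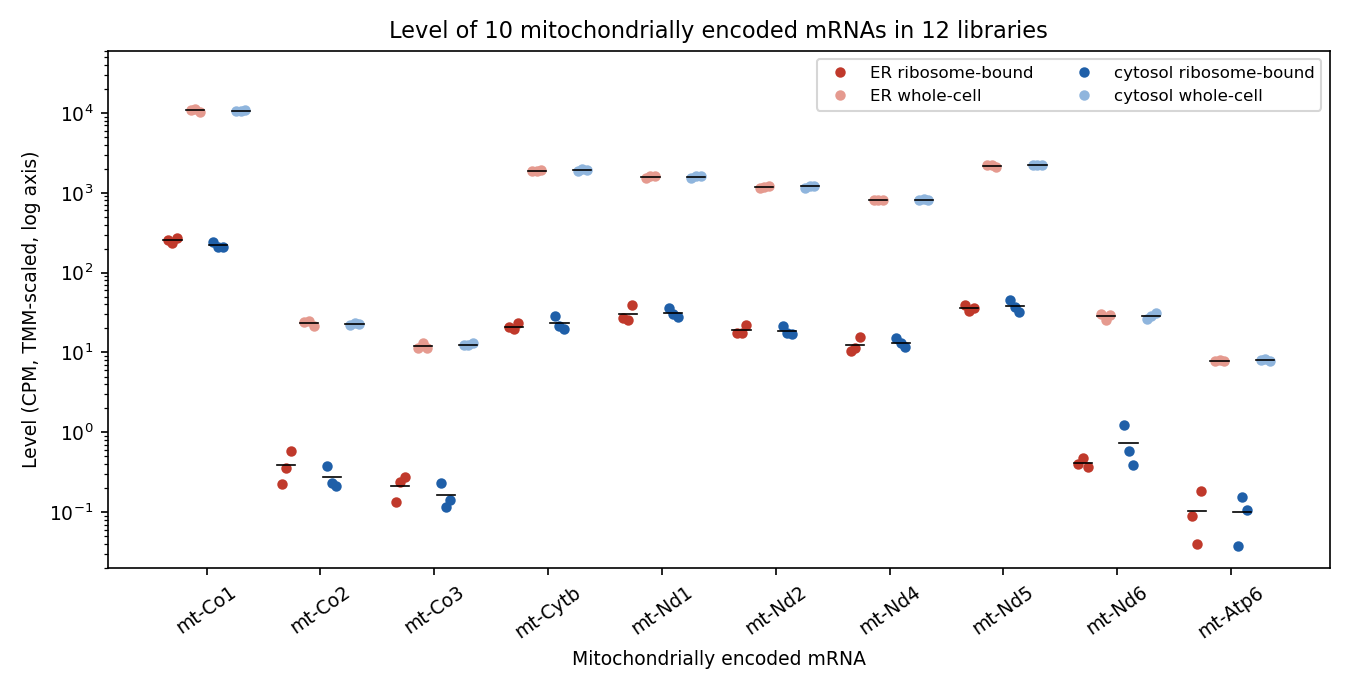
Level (CPM, scaled with trimmed mean of M values, log axis) of the 10 mitochondrially encoded mRNAs in each of the 12 libraries, by group; points are libraries and lines are means of 3. For each mRNA the ribosome-bound libraries lie far below the whole-cell libraries, as for mt-Co1 at 236 to 275 CPM in ER ribosome-bound and 10333.7 to 11128.0 CPM in ER whole-cell RNA.

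Complex IV, cytochrome c oxidase, is represented by 3 of the members. The first, mt-Co1, stood at 254, 236 and 275 CPM in the ER ribosome-bound libraries and at 10834.1, 11128.0 and 10333.7 CPM in the ER whole-cell libraries. In the cytosol ribosome-bound libraries it had 240, 212 and 210 CPM, against 10493.7, 10594.9 and 10995.0 CPM in the cytosol whole-cell libraries. The groups lay far apart in both cases, and the log2 ratio was -5.40 (SE 0.052, adjusted p = 5.2e-40) with ER targeting and -5.60 (SE 0.052, adjusted p = 2.1e-40) with cytosol targeting in edgeR's quasi-likelihood test. Its residual of 2.37% ± 0.183 with ER targeting had the highest mean of the 10 members there, and it was 2.06% ± 0.153 with cytosol targeting (SD, n = 3). mt-Co2, the subunit that receives electrons from cytochrome c, was read 5, 9 and 13 times in ER ribosome-bound libraries and 567, 498 and 560 times in ER whole-cell libraries. With cytosol targeting its counts were 10, 6 and 6 in ribosome-bound and 556, 557 and 515 in whole-cell libraries. Both sets of libraries were again clearly apart, but a residual of 1.68% ± 0.802 with ER targeting and 1.21% ± 0.404 with cytosol targeting rests on few reads. mt-Co3, the third core subunit, had 3, 6 and 6 counts in ER ribosome-bound libraries and 270, 269 and 302 in ER whole-cell libraries. Its residuals of 1.79% ± 0.601 with ER and 1.30% ± 0.471 with cytosol targeting overlap, as do those of mt-Co2.

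Complex III has a single mitochondrially encoded subunit, cytochrome b, the product of mt-Cytb. Its mRNA had the lowest log2 ratio of the 10 in both comparisons, -6.48 (SE 0.071, adjusted p = 1.7e-38) with ER targeting and -6.36 (SE 0.070, adjusted p = 1.6e-38) with cytosol targeting, edgeR's quasi-likelihood test. With cytosol targeting its place at the end is not separable from that of mt-Co2 (-6.35, on 22 ribosome-bound reads). The mean residual of mt-Co2, 1.21%, was just below the 1.22% of mt-Cytb. The libraries held 20.7, 19.5 and 23.1 CPM in ER ribosome-bound RNA and 1850.1, 1850.6 and 1920.4 CPM in ER whole-cell RNA. Cytosol ribosome-bound libraries held 28.8, 21.7 and 19.8 CPM, against 1865.7, 1967.5 and 1924.7 CPM in cytosol whole-cell libraries. The first cytosol ribosome-bound library was the highest of the ribosome-bound ones, and the others overlapped between targetings. Residuals of mt-Cytb were 1.13% ± 0.0975 with ER and 1.22% ± 0.247 with cytosol targeting. With ER targeting none of the 3 values reached the 2.19% to 2.56% of mt-Co1.

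The complex I subunits were depleted to a similar extent. mt-Nd1, which lies at the junction to the ubiquinone site, had 27.2, 25.3 and 39.0 CPM in ER ribosome-bound libraries and 1542.6, 1606.5 and 1608.6 CPM in ER whole-cell libraries. mt-Nd5, one of the antiporter-like subunits, had 39.0, 33.2 and 36.1 CPM in ER ribosome-bound and 2222.4, 2245.1 and 2104.1 CPM in ER whole-cell libraries. For both genes the ribosome-bound libraries stood well below all whole-cell libraries. Mean residuals with ER targeting were 1.92% ± 0.469 for mt-Nd1, 1.65% ± 0.133 for mt-Nd5, and 1.62% ± 0.244 and 1.53% ± 0.353 for mt-Nd2 and mt-Nd4, which encode the other antiporter-like subunits. With cytosol targeting they were 1.97% ± 0.261 for mt-Nd1, 1.73% ± 0.309 for mt-Nd5, 1.56% ± 0.205 for mt-Nd2 and 1.62% ± 0.21 for mt-Nd4. These values overlap among the 4 genes and between targetings. mt-Nd6 was read 9, 12 and 8 times in ER ribosome-bound libraries, against 715, 517 and 776 times in ER whole-cell libraries. In cytosol ribosome-bound libraries it was read 32, 15 and 11 times, against 662, 679 and 713 times in cytosol whole-cell libraries. The first cytosol ribosome-bound library stood apart for this gene, with a residual of 4.24% against 2.01% and 1.36% in the other 2, and the mean of 2.54% ± 1.51 was 1.69% without it.

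mt-Atp6, the subunit of ATP synthase that forms the proton path beside the c-ring, was the member with the fewest reads. It had 2, 1 and 4 counts in ER ribosome-bound libraries and 184, 164 and 204 in ER whole-cell libraries, and 1, 4 and 3 in cytosol ribosome-bound against 200, 194 and 177 in cytosol whole-cell libraries. With so few counts the SDs of its residual, 1.32% ± 0.919 with ER and 1.25% ± 0.732 with cytosol targeting, overlap those of all other members.

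**Figure D3:**
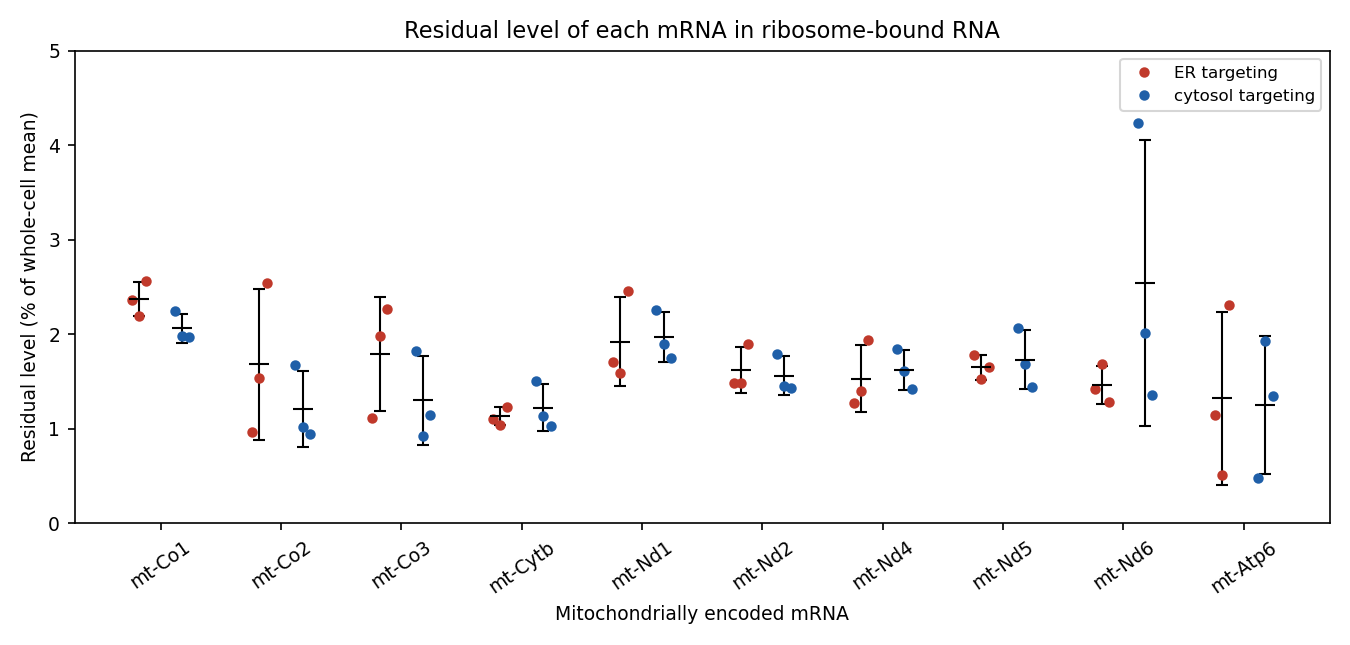
Residual level of each mRNA in each ribosome-bound library, as a percentage of the mean level in whole-cell RNA of the same targeting; points are libraries, bars the mean and SD of 3. Mean residuals lie between 1.13% and 2.37% with ER targeting and between 1.21% and 2.54% with cytosol targeting, the highest being that of mt-Nd6, whose first cytosol library is at 4.24%.

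The 3 mRNAs of the mitochondrial genome outside the chosen 10 were counted rarely. mt-Atp8, a small ATP synthase subunit, had 0, 0 and 1 counts in ER ribosome-bound and 17, 22 and 33 in ER whole-cell libraries, mt-Nd3 had 0, 1 and 0 against 17, 13 and 20, and mt-Nd4l had none in ER ribosome-bound libraries against 7, 3 and 6. Of these mt-Nd4l did not pass the filter and was not tested. The genes mt-Atp8 and mt-Nd4l overlap mt-Atp6 and mt-Nd4 on the mitochondrial genome, which makes the assignment of reads among them uncertain. The mitochondrial rRNAs, which are parts of the mitochondrial ribosome itself, had mean residuals below those of most of the mRNAs. mt-Rnr1 had a residual of 1.29% ± 0.669 with ER and 1.07% ± 0.152 with cytosol targeting, and mt-Rnr2 one of 0.945% ± 0.305 with ER and 0.794% ± 0.143 with cytosol targeting (SD, n = 3). Their log2 ratios of -6.28 and -6.74 with ER targeting and -6.54 and -6.98 with cytosol targeting were past the threshold, with adjusted p of 7.9e-33 for mt-Rnr1 and 1.2e-36 for mt-Rnr2 in edgeR's quasi-likelihood test with ER targeting. The 22 mitochondrial tRNAs together had 1, 0 and 1 counts in ER ribosome-bound and 195, 212 and 192 in ER whole-cell libraries, a summed residual of 0.347% ± 0.301. In cytosol ribosome-bound libraries they had 11, 4 and 9 counts, against 225, 181 and 199 in cytosol whole-cell libraries, a summed residual of 3.53% ± 1.59 (SD, n = 3). The counts of both ribosome-bound groups did not overlap, but they are few. Only 4 of the 22 passed the filter, and with so few ribosome-bound counts they passed it through the whole-cell groups in which they were high. That edgeR's quasi-likelihood test called 4 of 4 lower than whole-cell RNA in both targetings is therefore no independent evidence. It called 1 of 4 lower in ER than in cytosol ribosome-bound RNA, near the 24.6% of all tested genes called lower there. Levels of rRNAs and tRNAs in libraries of poly(A) RNA do not measure their abundance in the cell.

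Within the mitochondrial mRNAs, mt-Co1 took a larger share of the remainder than of the whole-cell pool and mt-Cytb a smaller one. These mRNAs are described first because their residuals lay at opposite ends with ER targeting, so their shares are no independent evidence of a difference. As a share of the counts of all 13 mitochondrial mRNAs, which needs no scaling between libraries, mt-Co1 made up 68.7%, 68.6% and 66.6% in ER ribosome-bound libraries and 58.6%, 58.9% and 57.2% in ER whole-cell libraries. It made up 61.7%, 63.7% and 65.8% in cytosol ribosome-bound libraries, against 57.9%, 57.3% and 58.1% in cytosol whole-cell libraries. The ribosome-bound libraries were above the whole-cell libraries without overlap in both targetings, and those of ER ribosome-bound RNA were above those of cytosol ribosome-bound RNA. An exact 2-sided permutation test of the shares cannot go below p = 0.1 with 3 libraries against 3, so none of these differences could pass a threshold of 0.05. That smallest value was reached by 5 of the 10 members in ER ribosome-bound against ER whole-cell RNA, by 8 in cytosol ribosome-bound against cytosol whole-cell RNA, by 2, mt-Co1 and mt-Cytb, in ER against cytosol ribosome-bound RNA and by 0 in ER against cytosol whole-cell RNA. For a member whose groups do not differ, the probability of reaching it is 0.1. Such shares have no counterpart over all genes here. Adjusted over all 40 such tests by Benjamini-Hochberg, the exact permutation p was 0.267 or more. The share of mt-Cytb was 5.62% ± 0.0451 in ER ribosome-bound, 10.1% ± 0.438 in ER whole-cell, 6.71% ± 0.632 in cytosol ribosome-bound and 10.4% ± 0.24 in cytosol whole-cell RNA (SD, n = 3 each). In counts, mt-Co1 exceeded mt-Cytb by 12.1 ± 0.177 times in ER ribosome-bound and 5.75 ± 0.329 times in ER whole-cell RNA, and by 9.57 ± 1.16 times in cytosol ribosome-bound and 5.57 ± 0.17 times in cytosol whole-cell RNA. The shares of mt-Nd2, mt-Nd4 and mt-Nd5 were also lower in ribosome-bound RNA without overlap in both targetings. Shares within a library sum to a fixed total, so they do not vary independently. A larger share of mt-Co1, the most counted mRNA, by itself lowers the others, so the members counted above are not separate results. mt-Nd1 had 8.05% ± 1.21 in ER ribosome-bound against 8.58% ± 0.288 in ER whole-cell RNA, groups that overlap, and 9.03% ± 0.283 in cytosol ribosome-bound against 8.60% ± 0.135 in cytosol whole-cell RNA, groups that do not. The part of the nuclear copy of mt-Co1 in its higher share was not tested; the windows it shares with Gm29216 are 23.6% of all, and mt-Cytb shares none.

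**Figure D4:**
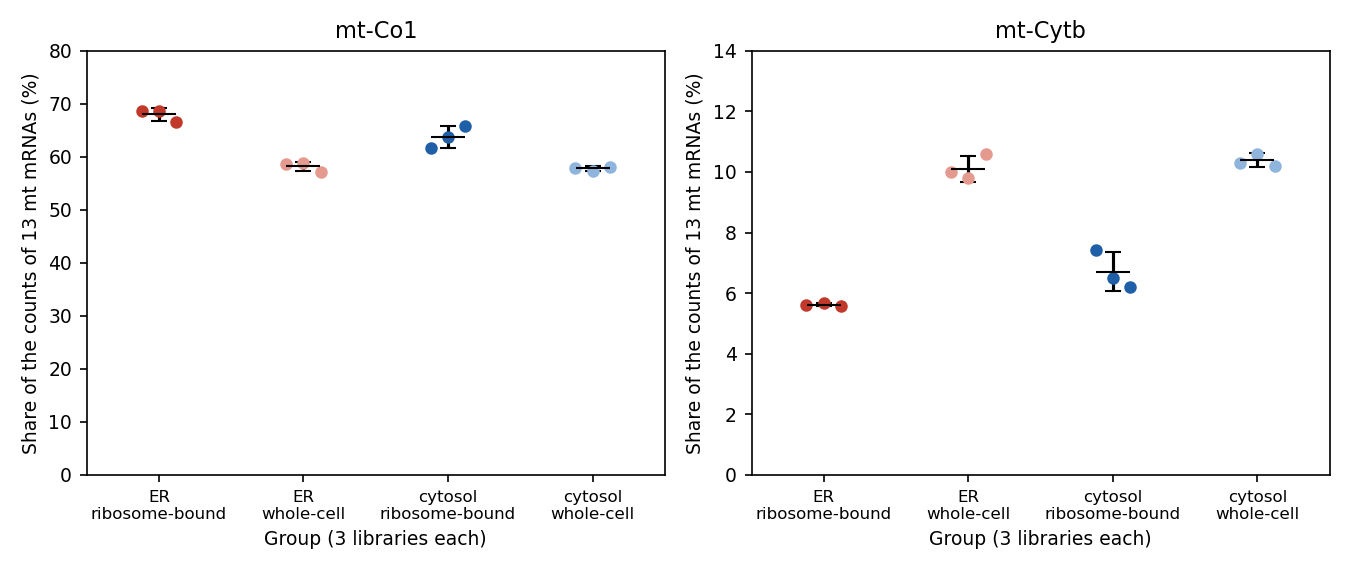
Share of the counts of all 13 mitochondrially encoded (mt) mRNAs that fell on mt-Co1 (left) and on mt-Cytb (right), by group; points are libraries, bars the mean and SD of 3. mt-Co1 took 66.6% to 68.7% in ER ribosome-bound and 57.2% to 58.9% in ER whole-cell libraries, and mt-Cytb had lower shares in both ribosome-bound groups.

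Between the ribosome-bound groups the log2 ratios of the 6 abundant mRNAs lay between -0.15 and 0.21, and which members were called depended on the scaling. Of the 10, none was lower and 1, mt-Co1, was higher in ER ribosome-bound than in cytosol ribosome-bound RNA by edgeR's quasi-likelihood test, beside 24.6% of all tested genes called lower and 29.1% called higher. At an unadjusted p under 0.05 the count was 1 lower and 1 higher, and DESeq2 called 1 lower and 1 higher after adjustment. With scaling by library totals 6 were lower and 0 higher, and with no filter on low counts 4 were lower and 1 higher. mt-Co1 had a log2 ratio of 0.21 (SE 0.045, adjusted p = 1.6e-04), with overlapping CPM values of 236 to 275 in ER ribosome-bound and 210 to 240 in cytosol ribosome-bound libraries. The call was lost without cytosol ribosome-bound replicate 2 (0.11, adjusted p = 0.053) and without ER ribosome-bound replicate 3 (0.09, adjusted p = 0.099), and with scaling by library totals the ratio was -0.04 (adjusted p = 0.44). mt-Nd6 was at -0.79 (SE 0.377, adjusted p = 0.077) and mt-Cytb at -0.15 (SE 0.080, adjusted p = 0.11), neither past the threshold. Both rest on single libraries. Without cytosol ribosome-bound replicate 1 mt-Nd6 was at -0.21 and mt-Cytb at 0.02. mt-Nd6 became significant when replicate 2 (-0.99) or 3 (-1.11) of cytosol ribosome-bound RNA or replicate 2 of ER whole-cell RNA (-0.85) was left out. For mt-Cytb this was the case, at -0.28 to -0.21, on leaving out replicate 3 of ER ribosome-bound RNA, replicate 2 or 3 of ER whole-cell RNA, replicate 2 or 3 of cytosol ribosome-bound RNA, or any 1 replicate of cytosol whole-cell RNA. Of the remaining members, mt-Co2, a rare mRNA, was at 0.49 (SE 0.410) and mt-Nd2, an abundant one, at 0.03 (SE 0.078). The fit shares 1 spread per gene among the 4 groups, while ribosome-bound libraries varied more relative to their mean. For mt-Co1 the level was 221 ± 16.4 CPM in cytosol ribosome-bound and 10694.5 ± 265 CPM in cytosol whole-cell RNA (SD, n = 3 each). SEs and p-values between the ribosome-bound groups can therefore be too small for the abundant mRNAs, mt-Co1 included. Scaling matters for a comparison of this size: against the main scaling, library totals moved the median log2 ratio of all genes by -0.246, and scaling to mRNAs of cytosolic proteins moved it by 0.156.

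The difference of both enrichments, ER minus cytosol, asked whether depletion from whole-cell RNA differed between targetings. None of the 10 members was lower and 1 was higher, beside 18.6% of all tested genes called lower and 24.8% called higher. It was mt-Co1 with 0.20 (SE 0.062) in edgeR's quasi-likelihood test, with an adjusted p = 0.0085, and with library totals the value was -0.04. The call was also lost in DESeq2 (0.16, adjusted p = 0.18), with mitochondrially encoded genes left out of the scaling (0.15) and without any 1 of 6 libraries (0.09 to 0.16), which were cytosol ribosome-bound replicate 2, cytosol whole-cell replicates 1 and 3, ER ribosome-bound replicates 1 and 3 and ER whole-cell replicate 3. The other members lay between -0.77 for mt-Nd6 (SE 0.386, adjusted p = 0.11) and 0.47 for mt-Co2 (SE 0.416, adjusted p = 0.40). mt-Nd6 became significant when replicate 3 of cytosol ribosome-bound RNA (-1.09) or replicate 2 of ER whole-cell RNA (-0.90) was left out, and it was at -0.19 when replicate 1 of cytosol ribosome-bound RNA was left out.

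Whole-cell RNA of both targetings held the members at the same level within error. No member was called by edgeR or DESeq2, and 0 members had an unadjusted p under 0.05 in either tool. Of all tested genes 0% were called in each direction. In edgeR 634 genes, 3.91% of those tested, were at an unadjusted p under 0.05. The log2 ratios, ER over cytosol whole-cell RNA, lay between -0.07 for mt-Co3 (SE 0.092) and 0.02 for mt-Co2 (SE 0.076). For mt-Co1 the ratio was 0.01 (SE 0.043).

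Set against the rest of the transcriptome, the members were among the most depleted RNAs of the ribosome-bound fractions. Ranked from the lowest log2 ratio of 16221 genes, they took ranks 9 to 27 with ER targeting, and 6 to 23 with cytosol targeting. Below a log2 ratio of -5 there were 28 genes with ER targeting, of which 10 were nuclear, and 25 with cytosol targeting, of which 11 were nuclear. In both comparisons 8 of those nuclear genes shared at least 50 bases with a mitochondrial transcript. The nuclear genes named below stayed under the minimum of 10 counts in every ribosome-bound library. They passed the filter through the whole-cell groups in which they were high, so their low ratios and their places are no independent evidence of depletion. The lowest with ER targeting were Gm13341 at 0, 0 and 0 counts in ribosome-bound libraries and 32 to 53 in whole-cell libraries, Gm28439, Snord89, a small nucleolar RNA, Gm28438 and Gm13340. With cytosol targeting they were Gm28437, Gm13341, Gm28438, Gm28661 and Rpph1, the RNA component of ribonuclease P, a nuclear noncoding RNA. The place of Rpph1 rests on 1 library. It had 1, 2 and 1 counts in cytosol ribosome-bound and 70, 204 and 34 in cytosol whole-cell libraries. Without cytosol whole-cell replicate 2 its log2 ratio was -5.25 instead of -6.29, rank 9 among nuclear genes. Other places in that comparison moved too. Without cytosol ribosome-bound replicate 2, Gm28661 was at -5.70 (rank 8) and Gm13341 at -6.27 (rank 6). Without cytosol ribosome-bound replicate 1, Gm28438 was at -6.11 (rank 6). Gm28437 stayed at rank 1 or 2. Gm28661, which holds the mt-Co2 sequence, had 2, 3 and 2 counts in ER ribosome-bound and 167, 186 and 195 in ER whole-cell libraries, and Gm28437, which holds that of mt-Co3, had 2, 3 and 1 against 103, 122 and 133. Together the 6 measured copies on chromosome 1 had residuals of 1.46% ± 0.36 with ER and 1.25% ± 0.217 with cytosol targeting, within the range of the members. The 5 nuclear genes whose profile over the 12 libraries was nearest to the median profile of the members were also copies: Gm13340, Gm28661, Gm28437, Gm10925 and Gm29216, at root mean square distances of 0.44 to 0.60 in log2 CPM, against 0.07 for mt-Nd1 and 0.38 for mt-Nd6 among the members themselves.

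Nuclear genes whose products work in the same complexes lay between log2 -0.45 and 1.35 with ER targeting. These mRNAs are translated by cytosolic ribosomes and their products are imported. Of 36 complex I subunits, 8 were lower and 15 higher in ER ribosome-bound than in ER whole-cell RNA, with a median log2 ratio of 0.06, from Ndufs1 (-0.45, adjusted p = 1.1e-11) and Ndufv1 (-0.27) to Ndufa1 (0.97) and Ndufc2 (1.35, adjusted p = 2.6e-25). Of 9 complex III subunits 3 were lower and 1 higher, between Uqcrc2 at -0.28 and Uqcrq at 0.16. Among 11 complex IV subunits 9 were higher and none lower, led by Cox4i1 (0.94, adjusted p = 3.1e-24) and Ndufa4 (0.91), while Cox7c had -0.04 (adjusted p = 0.45) and Cox7b 0.07 (adjusted p = 0.10). Of 15 complex V subunits 6 were lower and 2 higher, from Atp5a1 (-0.34) and Atp5b (-0.32) to Atp5g3 (0.24) and Atp5d (0.26). These values are from edgeR's quasi-likelihood test, to be read beside the 30.6% lower and 32.5% higher of all genes, and the cytosolic scaling moved the median of all genes by 0.219 in this comparison. With cytosol targeting the medians were 0.12 for complex I, -0.01 for complex III, 0.13 for complex IV and -0.01 for complex V. The 10 mitochondrial members of these complexes, at a median of -5.94, all lay below the nuclear subunits in both comparisons, where the lowest nuclear subunit was at -0.45 with ER and -0.41 with cytosol targeting.

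Nuclear genes for the upkeep and translation of the mitochondrial mRNAs lay between -1.05 and 0.47 with ER targeting. Of 26 genes of mitochondrial transcription and RNA processing 13 were lower and 2 higher with ER targeting, median -0.16, beside 30.6% of all tested genes called lower and 32.5% called higher. The lowest were Pnpt1 (-1.05), which degrades mitochondrial RNA, and Lrpprc (-1.02), which stabilises the mitochondrial mRNAs, and the highest was Trmt10c (0.26), part of mitochondrial ribonuclease P. Of 14 mitochondrial translation factors 6 were lower and 3 higher, median -0.10. They ran from Gfm1 (-0.71), an elongation factor, and Gfm2 (-0.60) to Mtrf1l (0.35), a release factor, and Mtif3 (0.47), an initiation factor. With cytosol targeting 8 were lower and 5 higher of the first list and 5 lower and 5 higher of the second, beside 33.1% of all genes lower and 20.8% higher.

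Long noncoding RNAs listed here as nuclear were another set, and their calls went in both directions. Whether each of them stays in the nucleus and away from ribosomes was not tested. Of 11 tested, 4 were lower and 4 higher with ER targeting, shares near the 30.6% and 32.5% of all genes, and the values lay between Rian (-2.02, adjusted p = 1.6e-27) and Neat1 (-0.79) on one side and Malat1 (1.61, adjusted p = 1.0e-16) and Tsix (2.06, adjusted p = 7.8e-15) on the other. Malat1 stood at 196 ± 38.1 CPM in ER ribosome-bound and 64.2 ± 2.75 CPM in ER whole-cell RNA, and at 143 ± 14.8 CPM in cytosol ribosome-bound and 59.7 ± 13.3 CPM in cytosol whole-cell RNA (SD, n = 3 each). With cytosol targeting Rian had -2.31 and Malat1 1.27, with 5 of 11 lower and 4 higher, beside 33.1% and 20.8% of all genes. Rian, the lowest of them, was above all 10 mitochondrial mRNAs in both comparisons. Whether reads of an overlapping strand entered the counts of Tsix is uncertain, because the strand setting of the counting is not given in the sources used here.

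**Figure D5:**
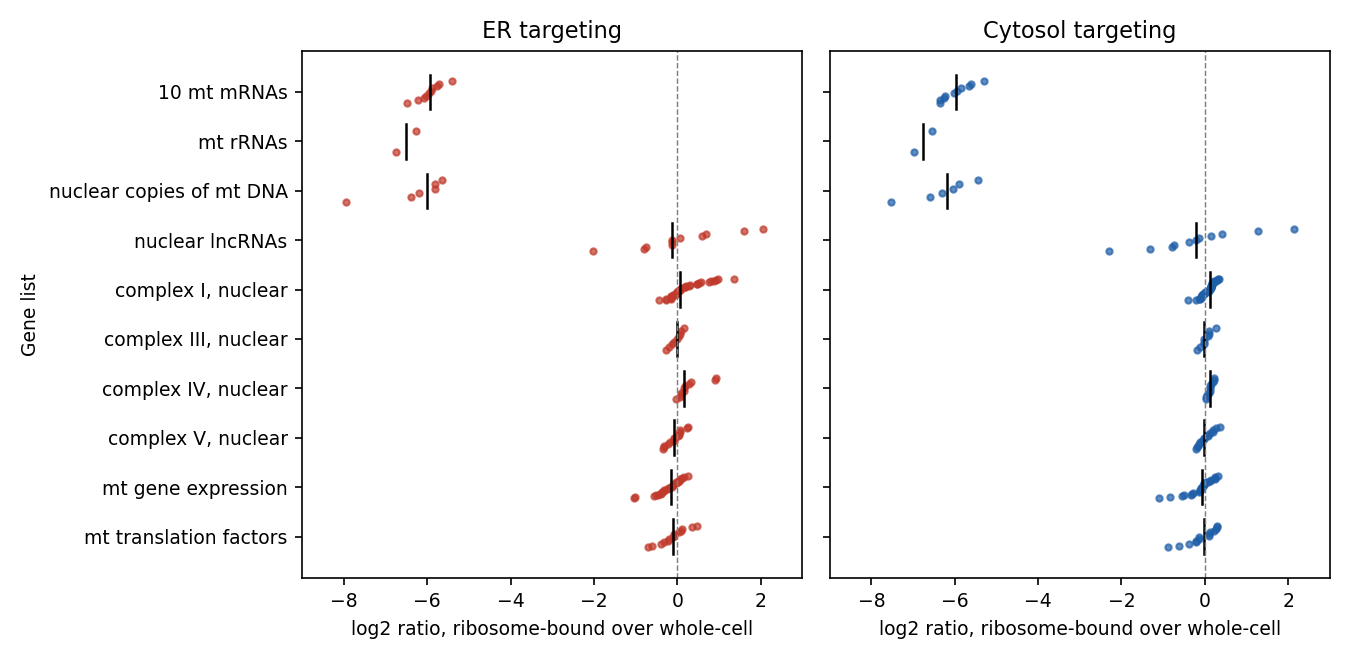
Log2 ratio of ribosome-bound over whole-cell RNA for each tested gene of 10 lists, with ER targeting (left) and cytosol targeting (right); points are genes, vertical bars medians, the dashed line is 0, and mt stands for mitochondrial. The 10 mitochondrial mRNAs have medians of -5.94 and -5.98 and lie with the mitochondrial rRNAs and the nuclear copies, while the nuclear-encoded subunits of the same complexes lie around 0.

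The proteins of the members are hydrophobic, as are many of those made at the ER. Each of the 10 proteins, translated with the vertebrate mitochondrial code, held at least 2 separate stretches of 19 residues with a mean Kyte-Doolittle hydropathy of 1.6 or more, from 2 in mt-Co2 to 10 in mt-Nd4. Of 2346 tested nuclear genes that meet the same criterion, 1869 were higher and 204 lower in ER ribosome-bound than in ER whole-cell RNA, with a median log2 ratio of 1.05 and a lowest value of -2.07, beside 32.5% of all tested genes called higher and 30.6% called lower. In cytosol ribosome-bound against cytosol whole-cell RNA, 116 of them were higher and 1285 lower, with a median of -0.33, beside 20.8% of all genes higher and 33.1% lower. The 9240 tested nuclear genes with no such stretch had medians of -0.09 with ER and 0.03 with cytosol targeting. The lowest of the 2346 was above the highest of the 10 members in both comparisons, at -3.17 with cytosol targeting.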

How the data were processed

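The deposited values were whole-number read counts per Ensembl gene, 1 table per library, not normalized by the authors. Per the submitters' processing notes, STAR 2.7.9a, HTSeq 0.11.2, the build GRCm39 and DESeq2 (no version) were used. Per the labels' protocols, libraries were directional, from poly(A) RNA, with 9 cycles of PCR and paired-end reads of 150 bases. Annotation release, strand setting and treatment of multimapped reads: not given in the sources used here.

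The 5 class totals for reads outside genes (8.75% to 12.54% of reads) stayed out of library sizes. GENCODE M21 (GRCm38) named 52083 of 55416 identifiers; no coordinates were taken from it. Genes passing filterByExpr (16221) were scaled by TMM factors (trimmed mean of M values), and 1 model of 4 groups was fitted with edgeR 4.0.16 in R 4.3.3. The quasi-likelihood test of edgeR was 2-sided, with p-values adjusted over all 16221 genes by Benjamini-Hochberg and a threshold of 0.05. The SE is the log2 ratio's size over the square root of F. It is derived from the test, and for ratios far from 0 on few reads it can be smaller than the counting error. It also rests on 1 spread per gene shared by the 4 groups. It can therefore be too small between ribosome-bound groups, whose libraries varied more for the abundant members. Counts of 21.1 to 26.9 M per library set the precision, and PCR reads are not independent molecules, so errors do not cover amplification. The procedure was tested on simulated counts. Shares of all 10 members were compared with exact permutation tests in scipy 1.17.1.

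Members and the gene lists (254 genes) were chosen with earlier results of these data known. Named besides the members were the other mitochondrial mRNAs and rRNAs, genes among the 2 lowest and 2 highest of a nuclear list with ER targeting, the 5 nearest nuclear profiles and the 5 lowest nuclear genes per comparison; other nuclear copies of mitochondrial sequence were named after their values were seen. Alternatives were size factors by relative log expression (RLE), library totals, scaling without mitochondrially encoded genes or to mRNAs of cytosolic proteins, no filter, DESeq2 1.42.0, only the groups compared, the replicate number as a block, and leaving out each library. The mt-Co1 share and the lowest nuclear genes without each library, and the share tests beyond mt-Co1 and mt-Cytb, were added after seeing the data.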

Additional observations from a re-analysis of the deposited data

Results flagged for a closer look

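The depletion of mt-Co1 from whole-cell RNA differed between targetings by 0.20 on the log2 scale, ER minus cytosol (SE 0.062; edgeR's quasi-likelihood test gave an adjusted p = 0.0085), and a test of that difference itself brought it here. The ratios to whole-cell RNA were -5.40 with ER and -5.60 with cytosol targeting. Ribosome-bound libraries overlapped, at 236 to 275 CPM with ER and 210 to 240 CPM with cytosol targeting. With library totals the difference was -0.04, and over the other settings with all libraries it ran from 0.14 to 0.37. The call was lost with library totals, in DESeq2, with mitochondrially encoded genes left out of the scaling and on leaving out some single libraries. The share of mt-Co1 among the 13 mitochondrial mRNAs, which uses no scaling, was 66.6% to 68.7% in ER ribosome-bound and 61.7% to 65.8% in cytosol ribosome-bound libraries. That share comes from the same counts and is no independent evidence of a difference. The exact permutation test of the shares gave p = 0.1, the lowest value it can reach.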

How the results depend on the processing

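Against whole-cell RNA, all 210 values of the 10 members over the alternatives kept their direction and their call in each targeting, between log2 -6.85 and -5.18 with ER and between -6.64 and -4.99 with cytosol targeting, and leaving out any library left 10 of 10 lower. Among these members mt-Co2, mt-Co3 and mt-Atp6 passed the filter through whole-cell RNA, so their calls are no independent evidence. Over the scalings the lowest and highest mean residual were 1.09% and 2.76% with ER and 1.21% and 2.89% with cytosol targeting. Values between the ribosome-bound groups depended on scaling. Members called lower in ER than in cytosol ribosome-bound RNA numbered 6 with library totals, 4 with no filter and 1 with RLE size factors, without mitochondrially encoded genes in the scaling and in DESeq2; called higher were 0 with library totals. Without 1 library the counts ran from 0 to 3 lower and from 0 to 1 higher. For the difference of enrichments 5 members were lower and 0 higher with library totals, 2 lower with no filter, 1 lower and 0 higher in DESeq2, and 0 higher without mitochondrially encoded genes in the scaling. There, leaving out 1 library gave 0 to 2 lower and 0 to 1 higher. mt-Co1 changed sign with library totals, to -0.04 in both comparisons. mt-Cytb (-0.15) was at 0 with cytosolic scaling and between -0.28 and 0.02 without 1 library, the last without cytosol ribosome-bound replicate 1. The causes were not tested. Same-numbered ribosome-bound and whole-cell libraries deviated together at r = -0.013 to 0.118, and different-numbered ones at r = -0.127 to 0.026. These overlapping ranges do not settle whether the numbers mark pairs, and the main fit did not take them as pairs. With a replicate block 10 members were lower in both comparisons with whole-cell RNA, and between the ribosome-bound groups 0 were lower and 1 higher. Few counts per library limit what can be said of mt-Co2, mt-Co3 and mt-Atp6 (at most 13) and of mt-Nd6 (8 to 32) in ribosome-bound RNA.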
